A study of Mus musculus with 8 samples.

Results

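The genes described here mark the cells that line blood and lymphatic vessels. They are 10 of the 19935 genes with a value in an array study of mouse skin. Pecam1, Cdh5, Tek, Kdr, Emcn, Flt1, Tie1, Vwf, Lyve1 and Prox1 were taken by symbol, each from the probe set annotated to that gene alone, and all 10 had exactly 1 such probe set. The study compared 4 wild-type samples with 4 Adam10 knockout samples on Affymetrix Mouse Gene 1.0 arrays, 1 array per sample. The Adam10 protein is a protease of the cell surface that cuts Notch receptors and cadherins there. The knockouts are titled cKO, commonly read as conditional knockout. The promoter that would drive a recombinase, the deleted exons, the strain and the sex were not given in the sources used here. Each title ends in a P and a number of its own, 57, 58, 59 and 60 on wild-type arrays 1 to 4 and 67, 68, 69 and 55 on knockout arrays 1 to 4. Whether that number names an animal or an age is not given, and if it is an age, age and genotype cannot be told apart. The labels name the material as mouse skin in one field and as primary cells of skin in another. They do not say whether each sample is a separate animal, so the p-values measure the spread between these samples, which may be technical.

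Endothelial cells form the inner wall of every vessel. VEGF (vascular endothelial growth factor) ligands made by surrounding cells, keratinocytes among them, act on the receptors Kdr and Flt1, and angiopoietins act on Tek, with Tie1 as its partner. Pecam1 and Cdh5 hold neighbouring endothelial cells together, Emcn and Vwf are products of blood vessel endothelium, and Lyve1 and Prox1 mark lymphatic vessels. In skin these vessels lie in the dermis and the fat below it, and the epidermis has none.

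Of the 10 genes, 6 had a promoter in the RefSeq-derived table of mouse promoters (build GRCm38.p6). The 3 below are shown because they belong to a gene with a steep step between arrays (Emcn), to a receptor with a smaller step (Tie1) and to the gene that did not share the step (Prox1), and because at most 16 of their bases lie within the gene's own model. Each run is the 250 bases before the start site, 5′ to 3′ on the gene's strand, with capitals on GGAAG or its reverse complement CTTCC, the core that ETS transcription factors recognise.
Emcn, chr3:137340828-137341077, + strand: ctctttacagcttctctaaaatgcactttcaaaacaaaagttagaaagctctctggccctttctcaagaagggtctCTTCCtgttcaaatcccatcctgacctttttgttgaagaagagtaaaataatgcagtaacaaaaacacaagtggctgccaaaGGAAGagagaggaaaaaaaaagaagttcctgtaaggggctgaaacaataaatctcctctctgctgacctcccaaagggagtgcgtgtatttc
Tie1, chr4:118489850-118490099, - strand: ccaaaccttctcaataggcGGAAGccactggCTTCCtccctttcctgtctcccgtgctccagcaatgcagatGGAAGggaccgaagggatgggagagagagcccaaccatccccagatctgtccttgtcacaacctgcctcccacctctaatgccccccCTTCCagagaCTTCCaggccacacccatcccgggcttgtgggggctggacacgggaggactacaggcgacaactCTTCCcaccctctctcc
Prox1, chr1:190170828-190171077, - strand: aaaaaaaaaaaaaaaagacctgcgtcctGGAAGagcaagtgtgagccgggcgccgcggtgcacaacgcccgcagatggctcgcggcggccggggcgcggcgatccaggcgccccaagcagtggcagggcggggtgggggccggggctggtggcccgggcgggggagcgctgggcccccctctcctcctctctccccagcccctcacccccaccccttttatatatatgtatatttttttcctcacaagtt
The core occurs 2 times in the Emcn window, 6 times in the Tie1 window and 1 time in the Prox1 window. A second Prox1 promoter, not shown, has all 250 bases within the gene's own model. It holds the core 3 times and TATAAA 0 times, with 56.0% G and C and 11 CpG. The core is a short motif, and 64.1% of 32851 mouse promoters of the same length hold it on either strand. The longer form CCGGAAG, found in 6.91% of promoters, is in none of the 3 windows, and neither is AGATAA, a motif of another family of blood and vessel factors, found in 9.99%. TATAAA, found in 12.4%, occurs 1 time in the Prox1 window, as its reverse complement, and not in the other windows. Base composition also differed, with 40.8% G and C and 1 CpG for Emcn, 60.4% and 6 for Tie1, and 64.8% and 20 for Prox1, against medians of 52.4% and 6 over all promoters. These are counts of letters and were not tested against the array values.

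The endothelial genes were dim on most arrays and bright on a single wild-type array. On the 7 arrays other than wild-type array 4 they lay between the 12.1 and 57.2 percentile of all probe sets of their array. On wild-type array 4 their median percentile was 66.1 and the highest, for Pecam1, was 84.8. No detection calls were used, so how many of the dim values lie above background is not known, and differences among them may understate changes in RNA. In 9 of the 10 genes wild-type array 4 held the highest of the 8 values, and the exception was Prox1. The share of all genes with their highest value on wild-type array 4 was not counted, so this count has no background. That array also correlated least with its group (mean Pearson r over all probe sets 0.974, against 0.980 to 0.988 for the other 7 arrays with theirs). The comparison of each of the 10 genes is given with all arrays and with wild-type arrays 3 and 4 left out. Both arrays were named beforehand because they held more muscle or dermal signal in an earlier analysis. Wild-type array 3 held the highest value of 0 of the 10 genes. In these bulk samples, fewer cells of a type and less RNA per cell cannot be told apart.

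Adam10 itself was measured at 7.28 ± 0.15 in wild type and 6.92 ± 0.12 in knockout (log2 intensity, SD, n = 4), and the groups did not overlap. The difference of -0.36 (SE 0.11) missed the threshold over all genes (limma adjusted p = 0.064). It passed in 6 of 18 alternative fits, among them quantile normalization (adjusted p = 0.033), cyclic loess (0.027) and log2 of the value plus 16 (0.037), and the adjusted p ran from 0.027 to 0.15 over the 18. Over all 19935 genes, 6.41% passed as higher and 2.34% as lower in the knockout (limma, Benjamini-Hochberg adjusted p under 0.05). With wild-type arrays 3 and 4 left out, 2.96% passed as higher and 1.68% as lower. Higher genes made up 73.2% of the calls, against 63.0% with quantile-normalized values, 89.6% with median-centred values and 56.9% with cyclic loess.

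None of the 10 endothelial genes passed the test with all 8 arrays. The count was 0 of 10 in limma against 8.75% of all genes, and Lyve1 was the 1 member with an unadjusted p under 0.05, where 25.1% of all genes were. Of the 10 differences, 9 were negative, and their median log2 difference was -0.77 against 0.0027 over all genes. The standard errors of 7 members exceeded 0.3, where the median over all genes was 0.12. All 10 had a larger SD in wild type than in knockout, and the share of all genes with this was not counted. Without wild-type array 4 the median was -0.27 and 1 member, Lyve1, passed as lower, where 10.0% of all genes passed and 3.25% as lower. Without wild-type arrays 3 and 4 the median was -0.11, 0 of 10 passed against 4.64% of all genes, and Lyve1 was again the 1 member with an unadjusted p under 0.05, as 19.8% of all genes were.

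**Figure D1:**
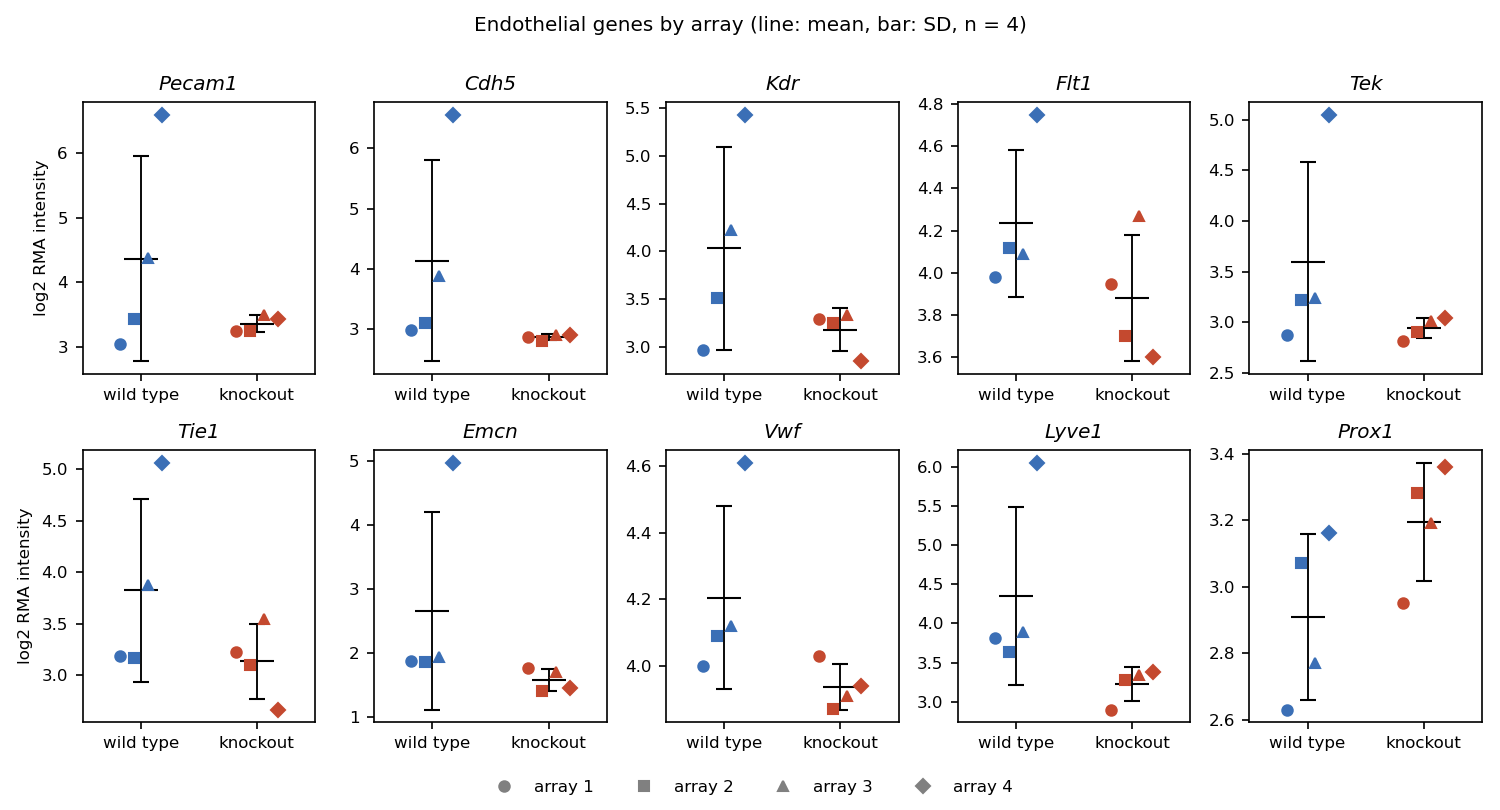
Log2 RMA intensity (y axis, a separate scale in each panel) of the 10 endothelial genes on the 4 wild-type arrays (blue) and 4 knockout arrays (red), with the symbol giving the array number, the line the mean and the bar the SD. Wild-type array 4 is the highest point in every panel except Prox1, while wild-type arrays 1 and 2 lie close to the knockouts in most panels.

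The junction genes showed the widest spread within wild type. Pecam1, an immunoglobulin-family adhesion molecule of endothelial junctions that leukocytes and platelets also carry, read 3.05, 3.44, 4.38 and 6.60 on wild-type arrays 1 to 4 and 3.25, 3.25, 3.50 and 3.44 on knockout arrays 1 to 4 (log2 intensity). Wild-type array 1 lay below all knockouts and wild-type arrays 3 and 4 above them, so the groups overlapped. The Pecam1 difference was -1.01 (SE 0.61, limma adjusted p = 0.33), and it turned to 0.11 (SE 0.15, adjusted p = 0.72) without wild-type arrays 3 and 4. Cdh5, the cadherin of endothelial adherens junctions, read 2.99, 3.10, 3.89 and 6.56 in wild type and 2.88, 2.81, 2.91 and 2.91 in knockout. The knockouts all lay below the wild types, but the gap to wild-type array 1 was 0.08. The Cdh5 difference was -1.26 (SE 0.64, adjusted p = 0.25) with all arrays and -0.16 (SE 0.11, adjusted p = 0.46) without wild-type arrays 3 and 4.

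The VEGF receptors also overlapped between the genotypes. Kdr, the main signalling receptor for VEGF, read 2.97, 3.51, 4.22 and 5.43 in wild type and 3.29, 3.25, 3.34 and 2.85 in knockout. Wild-type array 1 lay within the knockout range and the other wild-type arrays above it. The Kdr difference was -0.85 (SE 0.42, limma adjusted p = 0.24), and -0.06 (SE 0.18, adjusted p = 0.90) without wild-type arrays 3 and 4. Flt1, a receptor that binds VEGF tightly and also exists as a soluble decoy, read 3.98, 4.12, 4.09 and 4.75 in wild type and 3.95, 3.70, 4.27 and 3.60 in knockout. Its step on wild-type array 4 was small, 0.70 above the mean of wild-type arrays 1 and 2 where that of Kdr was 2.19. The Flt1 difference was -0.36 (SE 0.19, adjusted p = 0.28) and -0.17 (SE 0.18, adjusted p = 0.66) in the same order of fits.

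Of the angiopoietin receptor pair, Tek read 2.88, 3.22, 3.24 and 5.05 in wild type and 2.82, 2.91, 3.01 and 3.04 in knockout. Wild-type array 1 lay inside the knockout range, and wild-type array 4 above all other arrays. The Tek difference was -0.65 (SE 0.39, limma adjusted p = 0.32) with all arrays and -0.10 (SE 0.14, adjusted p = 0.73) without wild-type arrays 3 and 4. Tie1, the partner receptor of Tek, read 3.19, 3.17, 3.88 and 5.06 in wild type and 3.23, 3.10, 3.55 and 2.67 in knockout, so the ranges overlapped. The Tie1 difference was -0.69 (SE 0.37, adjusted p = 0.28) and -0.04 (SE 0.20, adjusted p = 0.93) in the same order. Its knockout SD of 0.36 was the largest among the 10 genes.

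Emcn and Vwf, the products of blood vessel endothelium, differed in how far wild-type array 4 departed. Emcn, a sialomucin of capillary and venous endothelium, read 1.87, 1.86, 1.93 and 4.97 in wild type and 1.76, 1.41, 1.70 and 1.46 in knockout. All knockouts lay below all wild types, by a gap of 0.10 to the nearest, and wild-type array 4 lay above both groups' other values. On the other 7 arrays Emcn was between the 12.1 and 21.1 percentile of probe sets, the dimmest position of the 10 genes, so the size of its step is not settled. Its difference was -1.07 (SE 0.60, limma adjusted p = 0.29) with all arrays, -0.30 (SE 0.11, adjusted p = 0.12) without wild-type array 4 and -0.28 (SE 0.14, adjusted p = 0.29) without wild-type arrays 3 and 4. Vwf, the clotting glycoprotein stored in endothelial granules and platelets, read 4.00, 4.09, 4.12 and 4.61 in wild type and 4.03, 3.87, 3.91 and 3.94 in knockout. Knockout array 1 lay above wild-type array 1, and wild-type array 4 was the highest. The Vwf difference was -0.27 (SE 0.13, adjusted p = 0.24) and -0.11 (SE 0.11, adjusted p = 0.64) without wild-type arrays 3 and 4.

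The differences of the lymphatic markers had opposite signs, and neither passed with all arrays. Lyve1, a hyaluronan receptor of lymphatic endothelium that some tissue macrophages also carry, read 3.81, 3.64, 3.89 and 6.05 in wild type and 2.90, 3.28, 3.34 and 3.38 in knockout. All 4 knockouts lay below all 4 wild types, and the gap to wild-type arrays 1 and 2 was 0.25, the widest of the 3 members without overlap. The Lyve1 difference was -1.12 (SE 0.45, limma adjusted p = 0.15) with all arrays. It was -0.55 (SE 0.13, adjusted p = 0.028) without wild-type array 4, a change of -31.8% that passed the threshold. It was -0.50 (SE 0.16, adjusted p = 0.11) without wild-type arrays 3 and 4, which missed it.

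Prox1, the transcription factor that sets lymphatic endothelial identity, read 2.63, 3.07, 2.77 and 3.16 in wild type and 2.95, 3.28, 3.19 and 3.36 in knockout. The ranges overlapped through wild-type arrays 2 and 4 and knockout array 1, and the highest value was on knockout array 4. The Prox1 difference was 0.29 (SE 0.14, limma adjusted p = 0.24), 0.37 (SE 0.14, adjusted p = 0.12) without wild-type array 4 and 0.34 (SE 0.16, adjusted p = 0.28) without wild-type arrays 3 and 4. It was the 1 member with a positive difference in all 3 of these fits.

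The members whose knockout values all lay below wild type were Cdh5, Emcn and Lyve1, 3 of 10 against 5.86% of all genes. Without wild-type arrays 3 and 4 the count was again 3 of 10, against 11.7% of all genes. No member had all knockouts above all wild types, where 12.2% of all genes did.

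**Figure D2:**
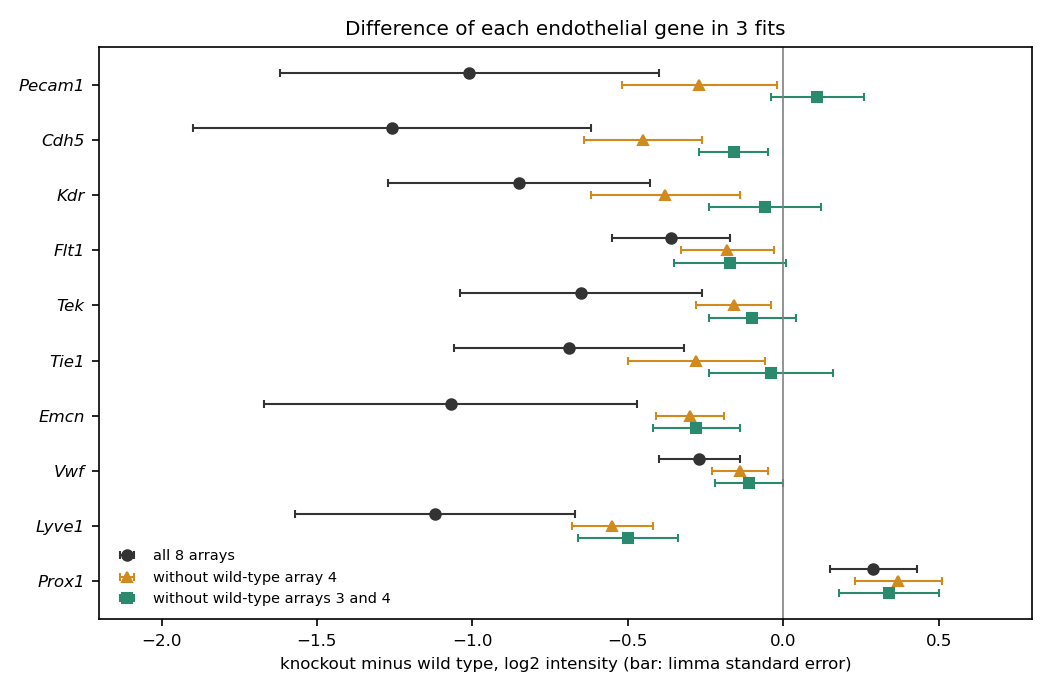
Knockout minus wild type on the log2 intensity scale (x axis) for each endothelial gene (y axis), with bars of 1 limma standard error, from all 8 arrays (black circles), without wild-type array 4 (orange triangles) and without wild-type arrays 3 and 4 (green squares). The median moves from -0.77 to -0.27 and -0.11, Prox1 stays right of 0 and Lyve1 has the most negative value of the third fit, -0.50.

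Wild-type array 3 separated the members further. Relative to the mean of wild-type arrays 1 and 2, Pecam1 was 1.13 higher there, Kdr 0.97, Cdh5 0.85 and Tie1 0.70. Emcn (0.06), Flt1 (0.04), Vwf (0.08), Lyve1 (0.17) and Tek (0.19) differed by less than 0.20, and Prox1 by -0.08. On wild-type array 4 the same step was 3.52 for Cdh5, 3.35 for Pecam1, 3.10 for Emcn, 2.33 for Lyve1, 2.19 for Kdr, 2.00 for Tek and 1.88 for Tie1. It was 0.70 for Flt1, 0.56 for Vwf and 0.31 for Prox1. Emcn and Lyve1 thus stepped up mainly on wild-type array 4, as did Tek, while Pecam1, Kdr, Cdh5 and Tie1 were higher on both arrays. With 1 array each, these steps have no replicate.

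Markers of other cell types moved with the same arrays. The muscle or dermal signal of wild-type arrays 3 and 4 was known from the earlier analysis. The muscle and fibroblast values below therefore describe it again and do not test it. Relative to each gene's mean over the 8 arrays, the median of 10 dermal fibroblast markers was 3.46 on wild-type array 4, 1.19 on the third wild-type array and -0.88 to -0.60 on the other 6 arrays. The 14 skeletal muscle markers lay at 3.48, 0.50 and -0.76 to -0.26, and their summed intensity was 306 to 7420 in wild type and 257 to 313 in knockout. The 9 adipocyte markers were at 2.56 on wild-type array 4 but at -0.31 on the third, and their sum was 194 to 1280 against 173 to 187. The fibroblast sum was 1360 to 8940 against 1800 to 2000. No marker of these lists is listed at 0. The endothelial median on the same scale was 1.80, 0.08 and -0.44 to -0.13. Keratinocyte markers went the other way on wild-type array 4, with a median of -0.54 and a summed intensity of 20620 against 25490 to 27760 elsewhere. The part of these markers in the endothelial differences was not tested.

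Of the 14 muscle, 9 adipocyte and 10 fibroblast genes, 0 passed with all arrays, where 8.75% of all genes did. The members with the smallest p were Acta1 (-2.40, limma adjusted p = 0.15), a muscle actin, Lipe (-0.52, adjusted p = 0.077), a fat cell lipase, and Col1a1 (-1.93, adjusted p = 0.14), a collagen chain. Without wild-type arrays 3 and 4 these differences were -0.40, -0.28 and -0.37. In that fit 2 of the 10 fibroblast markers rose, Dcn (0.74) and Sparc (0.96), both matrix proteins, where 2.96% of all genes rose, and the list median was -0.07. Of the 9 adipocyte markers 1 fell, Cd36, by 1.13, where 1.68% of all genes fell, and the list median was -0.12. No muscle marker passed in it, where 4.64% of all genes did, and the muscle median was -0.15. Cd36 is a fatty acid carrier of fat cells that capillary endothelium and macrophages also use. Of 10 keratinocyte markers 4 rose with all arrays, where 6.41% of all genes rose. Among them were the keratins Krt14 (0.63) and Krt15 (0.46) and the desmosomal cadherin Dsg3 (1.17). The other was the keratin Krt5, named after its values were seen. With single arrays left out, Krt14 missed the threshold in 1 of 8 fits, and Krt15 and Dsg3 in 6 each. Without wild-type arrays 3 and 4, Dsg3 was the 1 keratinocyte marker that passed, where 2.96% of all genes rose.

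**Figure D3:**
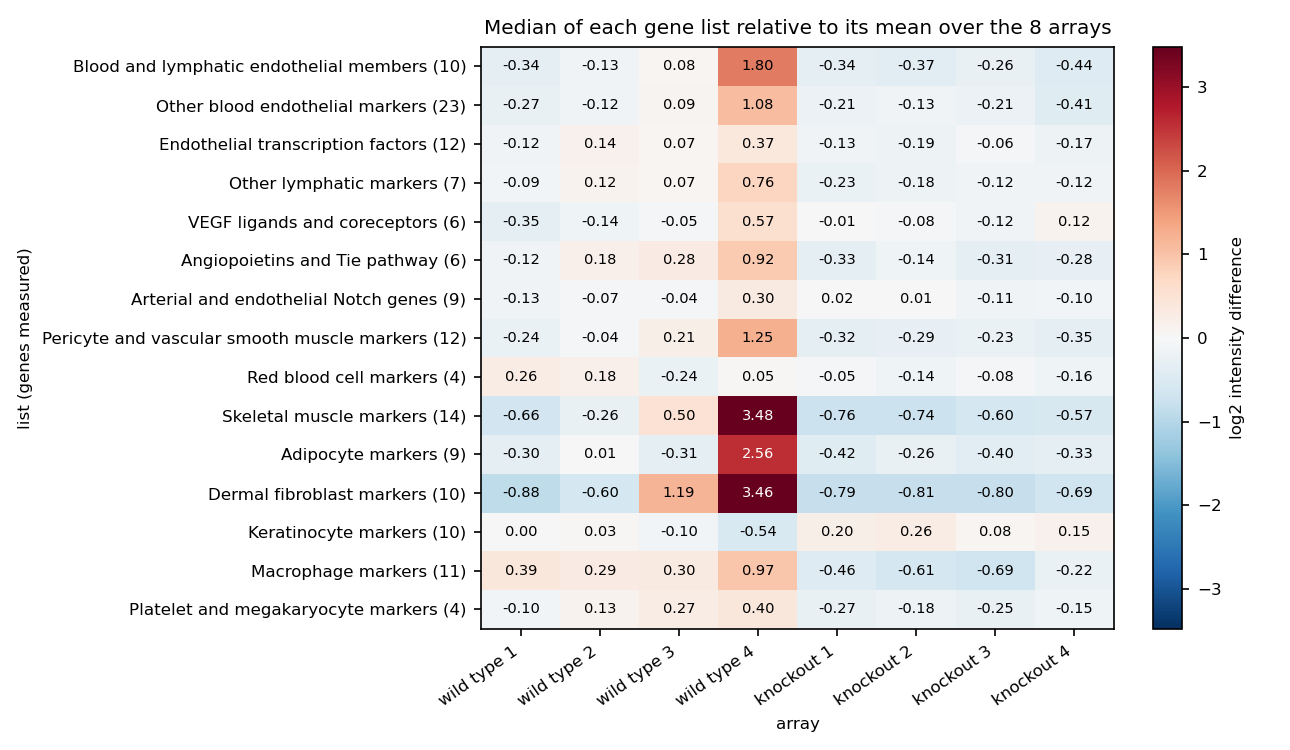
Median log2 intensity of each gene list (rows, with the number of genes measured) on each array (columns), relative to each gene's mean over the 8 arrays, in red where higher and blue where lower. The endothelial row reads 1.80 on wild-type array 4, where the fibroblast and muscle rows read 3.46 and 3.48, and the macrophage row separates all wild-type arrays (0.29 to 0.97) from all knockouts (-0.69 to -0.22).

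Macrophage markers were lower in the knockout, and their median separated all knockout from all wild-type arrays. Of 11 measured, 7 fell and 0 rose with all arrays, where 2.34% of all genes fell. The fit without wild-type arrays 3 and 4 had 6 that fell, where 1.68% of all genes did. The median was -0.90 and -0.78. Lyz2, a lysozyme of macrophages, changed by -2.42 (SE 0.34, limma adjusted p = 0.0042), the complement chains C1qa and C1qc by -1.04 and -1.17, and Cd14, a coreceptor for bacterial lipopolysaccharide, by -0.90. The macrophage sum was 406 to 704 in wild type and 203 to 276 in knockout, with no overlap, as for Lyve1. Stab1, a scavenger receptor of sinusoidal and lymphatic endothelium and of macrophages, was the blood endothelial marker that fell. It read 4.94, 5.06, 4.98 and 5.62 in wild type and 4.40, 4.06, 4.15 and 4.57 in knockout. Its difference was -0.86 (SE 0.17, limma adjusted p = 0.014) with all arrays and -0.71 (SE 0.16, adjusted p = 0.035) without wild-type arrays 3 and 4, and it missed the threshold without knockout array 2 (adjusted p = 0.058). Whether macrophage RNA contributed to the Lyve1 and Stab1 values was not tested.

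Among 23 other blood endothelial markers 1 rose and 1 fell with all arrays, with a median of -0.45. In that fit 6.41% of all genes rose and 2.34% fell. The fit without wild-type arrays 3 and 4 had 1 that rose and 2 that fell, with a median of -0.14. There 2.96% of all genes rose and 1.68% fell. The highest of the 8 values was on wild-type array 4 for 21 of the 23, and the share over all genes was not counted. Mcam, an adhesion molecule of endothelial cells and pericytes, read 7.27, 7.31, 7.57 and 7.57 in wild type and 7.90, 8.25, 8.21 and 8.15 in knockout. It did not share the step of most of the list, with wild-type array 4 only 0.28 above the mean of wild-type arrays 1 and 2. Mcam rose by 0.70 (SE 0.12, limma adjusted p = 0.0072), passed in each fit that left out 1 array, and rose by 0.84 without wild-type arrays 3 and 4. Cd34, a sialomucin of capillaries, hair follicle cells and fibroblasts, read 3.95, 3.92, 4.77 and 8.0 in wild type and 3.62, 3.19, 3.19 and 3.39 in knockout, with no overlap. Its difference of -1.81 (SE 0.75) missed the threshold with all arrays (adjusted p = 0.16). It passed at -0.87 without wild-type array 4 (adjusted p = 0.023) and at -0.59 without wild-type arrays 3 and 4 (adjusted p = 0.0499).

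Of 12 transcription factors of endothelium 1 rose and 0 fell in both fits, with medians of -0.23 and -0.16. Over all genes 6.41% and 2.96% rose in these fits. Ets1, an ETS factor that lymphocytes and some epithelial cells also express, read 4.24, 4.65, 4.39 and 5.01 in wild type and 5.27, 5.30, 5.26 and 5.29 in knockout. The groups did not overlap, and Ets1 rose by 0.71 (SE 0.15, limma adjusted p = 0.020) and by 0.83 without wild-type arrays 3 and 4 (adjusted p = 0.011). It missed the threshold without wild-type array 3 and without knockout arrays 1, 2 or 3 (highest adjusted p = 0.068). Erg and Fli1, ETS factors closer to the endothelial lineage, did not pass, with differences of -0.33 (SE 0.20) and -0.42 (SE 0.25), and -0.05 and -0.01 without wild-type arrays 3 and 4. They were named after their values were seen.

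Among the ligands of these receptors, Angpt2 and Vegfa fell with all arrays. Angpt2, the angiopoietin that endothelial cells store and release to modulate Tek, read 4.46, 4.71, 5.22 and 5.39 in wild type and 2.74, 3.45, 3.26 and 3.87 in knockout. The groups did not overlap, and Angpt2 fell by 1.61 on the log2 scale (SE 0.26, limma adjusted p = 0.0060). It passed in each fit that left out 1 array (differences of -1.79 to -1.41), and the change was -1.25 (SE 0.25, adjusted p = 0.026) without wild-type arrays 3 and 4. It was the 1 of 6 angiopoietin and Tie pathway genes that passed, and the list median was -0.49 and -0.27 in these fits. Over all genes 2.34% fell with all arrays and 1.68% without wild-type arrays 3 and 4.

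Of 6 VEGF ligands and coreceptors 1 fell with all arrays, where 2.34% of all genes fell. The fit without wild-type arrays 3 and 4 had 1 that rose, where 2.96% of all genes did. Vegfa, the main ligand of Kdr and Flt1, read 6.01, 6.22, 6.16 and 6.68 in wild type and 5.52, 5.53, 5.37 and 5.85 in knockout, with no overlap. It fell by 0.70 (SE 0.16, limma adjusted p = 0.024), but missed the threshold in 5 of the 8 fits with an array left out (wild-type array 2 or 3, or knockout array 1, 2 or 3). Without wild-type arrays 3 and 4 its difference was -0.55 (SE 0.15, adjusted p = 0.074). Vegfd, a ligand of the lymphatic receptor Flt4, read 5.86, 5.78, 5.75 and 6.91 in wild type and 6.62, 6.80, 6.48 and 6.53 in knockout. All knockouts lay above wild-type arrays 1 to 3 and below wild-type array 4. The Vegfd difference was 0.53 (SE 0.23, adjusted p = 0.19) with all arrays, 0.81 (adjusted p = 0.0018) without wild-type array 4 and 0.79 (SE 0.13, adjusted p = 0.011) without wild-type arrays 3 and 4.

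**Figure D4:**
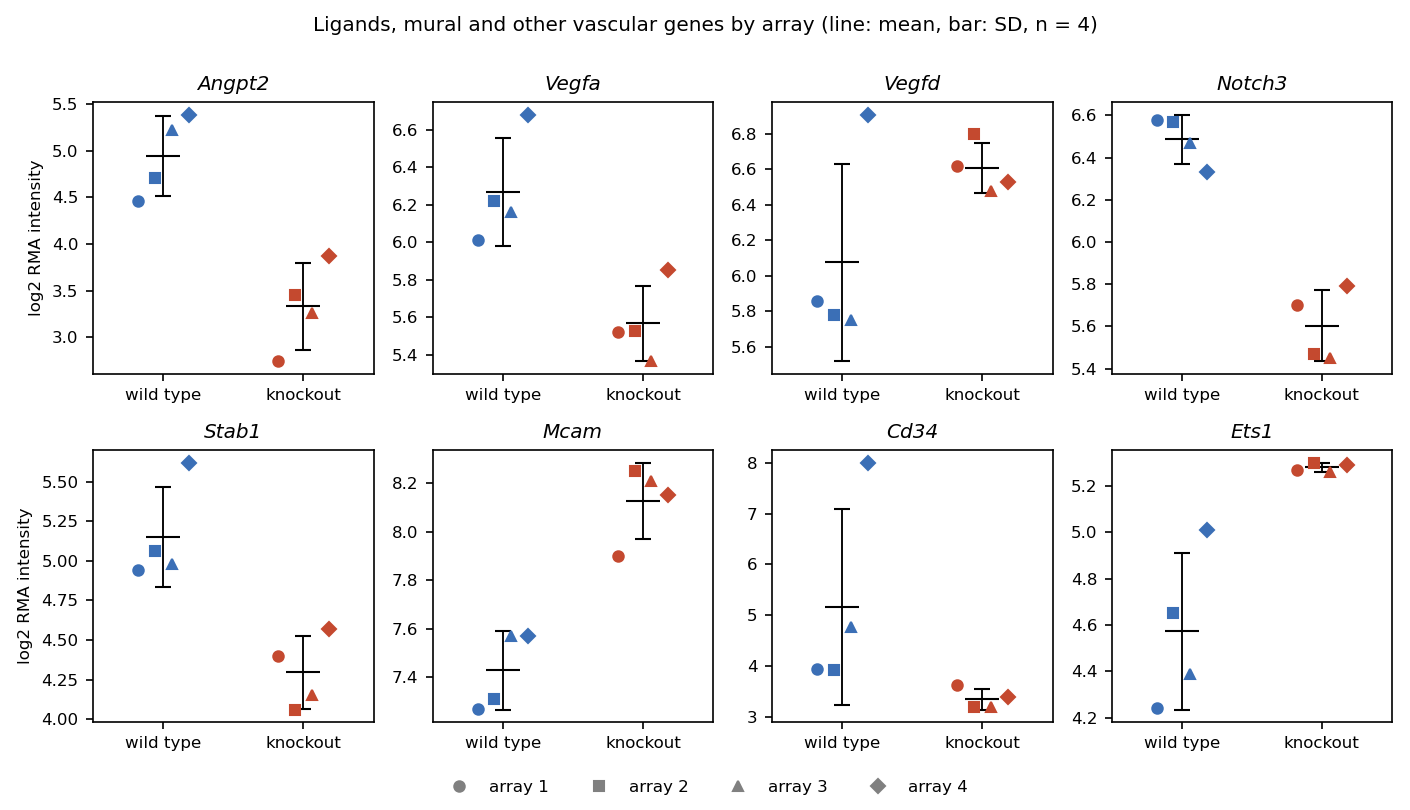
Log2 RMA intensity (y axis, a separate scale in each panel) of ligands (Angpt2, Vegfa, Vegfd), a mural cell Notch receptor (Notch3) and other vascular genes (Stab1, Mcam, Cd34, Ets1) on the 4 wild-type (blue) and 4 knockout arrays (red), with the line at the mean and the bar giving the SD. Knockout and wild type do not overlap for any of these genes except Vegfd, whose wild-type array 4 lies above the knockouts.

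Pericytes and smooth muscle cells wrap the vessels. Of 12 of their markers 1 fell and 0 rose in both fits, with medians of -0.72 and -0.12. Over all genes 2.34% and 1.68% fell in these fits. Notch3, a Notch receptor of mural cells that keratinocytes also express, changed by -0.89 (SE 0.11, limma adjusted p = 0.0025) and by -0.98 (SE 0.13, adjusted p = 0.0067) without wild-type arrays 3 and 4. Its wild-type values were 6.58, 6.57, 6.47 and 6.33, lowest on wild-type array 4. There 10 of the 12 mural markers, all but Notch3 and Cspg4, had their highest value, and the share over all genes was not counted. Rgs5, a pericyte marker chosen after its values were seen, read 2.27, 2.37, 2.86 and 4.83 in wild type and 2.23 to 2.47 in knockout. Its difference was -0.78 (SE 0.46, adjusted p = 0.32) with all arrays and -0.02 without wild-type arrays 3 and 4. In the 9 arterial and endothelial Notch genes 0 passed in either fit, against 8.75% and 4.64% of all genes (medians -0.19 and -0.12). The smallest p there was that of Efnb2, a ligand of arterial endothelium also made by other cells (0.31, SE 0.12, adjusted p = 0.15, and 0.23 without wild-type arrays 3 and 4).

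Of 7 other lymphatic markers 0 passed in either fit, against 8.75% and 4.64% of all genes, with medians of -0.21 and -0.11. Mmrn1, a secreted protein of lymphatic endothelium and platelets, had the smallest p and read 1.81, 1.79, 2.01 and 3.15 in wild type and 1.45 to 1.80 in knockout (difference -0.56, SE 0.26, limma adjusted p = 0.22). Its difference was -0.24 without wild-type array 4 and -0.17 without wild-type arrays 3 and 4. Flt4, the lymphatic receptor for Vegfd, read 3.33, 3.58, 3.40 and 4.36 in wild type and 3.19 to 3.34 in knockout, a difference of -0.40 (SE 0.20, limma adjusted p = 0.24) that was -0.17 and -0.19 in the same order. Flt4 was chosen after its values were seen. Like Lyve1, both were highest on wild-type array 4.

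Red cell and platelet markers would follow blood held in the vessels, but only 4 of 8 listed red cell genes and 4 of 6 listed platelet genes were measured. Of the 4 red cell markers, 0 passed with all arrays, where 8.75% of all genes did. Slc4a1, the anion exchanger of red cells, read 5.02, 5.01, 4.28 and 4.79 in wild type and 4.55, 4.39, 4.58 and 4.29 in knockout. Wild-type array 3 lay below all knockouts. The Slc4a1 difference was -0.32 (SE 0.16, limma adjusted p = 0.25) with all arrays. Slc4a1 fell by 0.56 (SE 0.13, adjusted p = 0.037) without wild-type arrays 3 and 4. It was the 1 of 4 that passed there, where 1.68% of all genes fell. The red cell median was highest on wild-type array 1 (0.26) and lay at 0.05 on wild-type array 4. Of 4 platelet markers 0 passed in either fit, against 8.75% and 4.64% of all genes. Ppbp, a platelet chemokine, had the smallest p (-0.63, SE 0.23, limma adjusted p = 0.12, and -0.37 without wild-type arrays 3 and 4). The platelet sum was 168 on wild-type array 4 and 46.0 to 66.0 on the other 7 arrays. Only 2 of the 4 platelet markers had their highest value where the sum was highest. The list median there was 0.4, against 0.27 for the third wild-type array. The part of platelets in the Pecam1 and Vwf values was not tested.

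The mean profile of the 10 endothelial genes, centred on the 8 arrays, was -0.34, -0.16, 0.16 and 1.74 on wild-type arrays 1 to 4 and -0.42 to -0.21 in knockouts. Tek followed it most closely, with a root mean square difference of 0.11 on the log2 scale over the 8 arrays, and Prox1 least (0.71). Among 8307 other named genes with a mean log2 intensity of at least 5, the 6 nearest to the profile were Bin1 (0.14), Hacd1 (0.15), Cox6a2 (0.16), Grb10 (0.20), Crat (0.21) and Eci1 (0.22). Their values on wild-type array 4 were 1.49 to 1.86 above their own means. All of these profiles rest on the same 8 arrays and on the step of wild-type array 4.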

How the data were processed

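RNA of skin samples, 4 wild-type and 4 Adam10 knockout, was profiled on Affymetrix Mouse Gene 1.0 arrays. The authors deposited 1 linear intensity per probe set and array, made with RMA (robust multi-array average) according to the submitters' processing notes. The method subtracts background, aligns the arrays and summarises probes; its version and settings were not given in the sources used here. Here log2 was taken with no pseudocount. Of 35519 probe sets 21780 carried exactly 1 gene symbol, and 21689 of these matched RefSeq genes (GRCm38.p6) by Entrez identifier with 0 symbols changed. The probe set with the highest mean was kept for the 998 genes with several, and no dim gene was removed, leaving 19935.

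Knockout was compared with wild type in limma 3.58.1 (R 4.3.3, lmFit and eBayes, two-sided). P-values were adjusted by Benjamini-Hochberg over the 19935 genes, and a gene passed below 0.05. Fits without wild-type array 4 or without wild-type arrays 3 and 4 were adjusted likewise. Arrays give no depth, and their number limits the precision. On simulated data of 19935 genes the fit with all 8 arrays recovered 34% of changes of 0.5 and 90% of changes of 1 on the log2 scale. Without wild-type arrays 3 and 4 it recovered 8% and 58%. The shares with all arrays do not carry over to the endothelial genes. In that fit 7 of them had standard errors over 0.3, where the median over all genes was 0.12.

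The 10 genes and the 14 other lists were chosen with earlier results of these data known. Beyond the 10 genes and Adam10, up to 3 passing genes per list, direction and fit are named by smallest p, or the gene with the smallest p where none passed with all arrays. The 6 genes nearest to the mean profile are named too, and names starting with Olfr, Vmn or Gm and a number are left out. The alternatives are described with their effects at the end.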

Additional observations from a re-analysis of the deposited data

Results flagged for a closer look

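In groups of 4 arrays, a value was marked when its gap to the nearest other value took up more of the group's range than Dixon's 95% critical value allows, which chance alone does in about 1 in 20 groups. Of 102 groups examined, 10 had such a value, and 7 of these were on wild-type array 4. Among the endothelial genes it was that array for Tek (5.05, next 3.24), Emcn (4.97, next 1.93) and Lyve1 (6.05, next 3.89, all log2 intensity). The same array stood apart for Mmrn1 (3.15, next 2.01) and Vegfd (6.91, next 5.86). It also did so for the medians of the adipocyte list (2.56, next 0.01) and the macrophage list (0.97, next 0.39), relative to the mean of all arrays. Adam10 was low on wild-type array 3 (7.06, next 7.33). Krt15 was low on knockout array 3 (11.00, next 11.14), and the dermal fibroblast median was high on knockout array 4 (-0.69, next -0.79).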

How the results depend on the processing

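The 10 endothelial differences were recomputed with 3 other scalings (median centring, quantile, cyclic loess), dim genes filtered out, probe sets averaged, array weights, a trended robust prior, log2 of the value plus 16, and arrays left out. Of 162 such values 160 kept their direction and stayed on the same side of the threshold. No member passed with all arrays, so the same side here means not passing, and a kept direction says nothing of size. Over these settings Kdr ran from -1.2 to -0.06 and Lyve1 from -1.36 to -0.5. Lyve1 passed without wild-type array 4, and Pecam1 turned to 0.11 without wild-type arrays 3 and 4. With 1 array left out, the count of members that passed as lower in the knockout was 0 to 1, and 0 passed as higher throughout. The median ran from -1.05 without wild-type array 1 to -0.27 without wild-type array 4. The sizes depended on the scale: the median of -0.77 was -0.35 with log2 of the value plus 16 and -0.50 with array weights, and the Pecam1 difference of -1.01 was -0.63 and -0.78. Median centring moved the median of all genes to 0.105. A filter at a mean log2 of 4 kept Flt1 and Vwf alone, and at 5 no member was left, so that setting gives no value.

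Over all genes, 1277 were called higher and 467 lower. The number called higher was 847 after quantile normalization, 769 after cyclic loess, 2453 after median centring (286 lower), 2405 with array weights (1216 lower) and 591 without wild-type arrays 3 and 4. With 1 array left out it ran from 426 to 1417 higher and from 161 to 647 lower. Of 454 values of the other named genes 396 kept direction and side, while Sparc, at 0.24 with all arrays, ran from -0.01 without wild-type array 1 to 0.75 without wild-type array 4. Of 750 counts and medians of the other lists 62 moved. The cause was not tested. No paired analysis was possible because the labels give the groups no shared replicate numbers.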
